A study of Mus musculus with 3 samples.

Results

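The nuclear-encoded subunits of the mitochondrial respiratory chain and ATP synthase were followed in mT3-2D-GFP, a cell line from a KPC mouse pancreatic tumour (a genetically engineered model of pancreatic cancer) that carries green fluorescent protein. The members were chosen by symbol alone: the Nduf subunit genes, Sdha to Sdhd, the Uqcr genes, the Cox genes numbered 4 to 8, the Atp5 genes, Cyc1 and Cycs. This gave 76 of 11886 genes, measured on 92 of 17910 RefSeq transcripts. There were 3 groups of 1 library each, all from the same line of C57BL/6 origin. The first was the line grown in serum-containing medium, the second GFP-positive cells sorted from tumours in immunodeficient B6.CB17-Prkdcscid/SzJ (SCID) mice, and the third GFP-positive cells sorted from tumours in immunocompetent C57BL/6 (WT) mice. SCID mice lack T and B cells and keep innate immune cells. Each tumour library is a pool with equal RNA input, from 5 SCID and 6 WT tumours, so the spread between tumours was not measured, no difference has a replicate check and no test between groups was made. The labels used here give no age for the mice. The measurements are log2 fold changes between libraries from the authors' deposited table, and a gene's value is the mean over its transcripts. Levels and read depth per library are unknown here, and lower RNA per cell cannot be told apart from a smaller share of the cells that hold it.

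The respiratory chain passes electrons from NADH (complex I) and succinate (complex II) to ubiquinone, then through complex III, cytochrome c and complex IV to oxygen, and the proton gradient this builds drives ATP synthase (complex V). Most subunits are encoded in the nucleus and imported, and a small set is encoded in mitochondrial DNA. Tumour cells often run glycolysis beside respiration, and the balance shifts with oxygen and nutrient supply.

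Most subunit genes were lower in the sorted tumour cells than in the cultured line in the deposited values, by a small amount. In SCID tumour cells 72 of 76 members were below 0 against the line, while 51.7% of all genes were. In WT tumour cells 73 of 76 were below 0, against 51.4% of all genes. The median over members was -0.36 in SCID cells (1.29-fold lower) and -0.30 in WT cells (1.23-fold lower), and each complex had a median below 0. With a trend in GC content and length removed, as described below, the medians over members were -0.15 and -0.090. In WT cells 8 of 16 complex V members were then below 0, beside 51.2% of all genes. Over all genes the medians were -0.02 and -0.01. The members' quartiles lay between -0.49 and -0.21 in SCID cells and between -0.43 and -0.20 in WT cells. Their SD over genes was 0.21 and 0.19, while that of all genes was 0.51 in both comparisons. The members thus formed a narrow distribution displaced to one side of 0, from -0.88 to 0.31 in SCID cells.

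**Figure D1:**
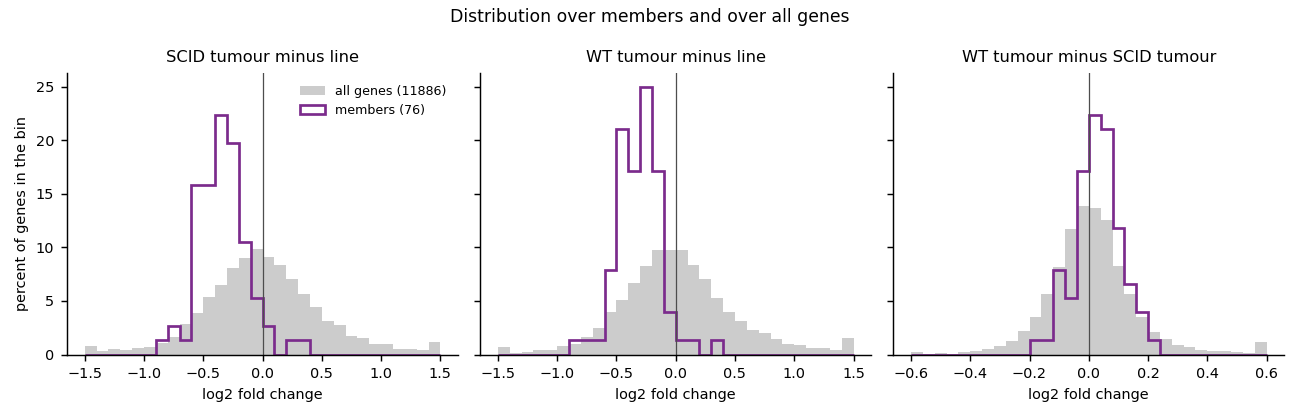
Percent of genes in each bin of log2 fold change (x axis) for all 11886 genes (grey) and the 76 members (outline), in the 3 comparisons; genes beyond the axis are counted in the end bins. The members lie to the left of 0 against the cultured line, with medians of -0.36 and -0.30, and near 0 between the tumour pools, with a median of 0.03.

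How many members counted as lower depended on the size asked for. At 0.32 or more on the log2 scale, 42 members were lower in SCID cells (55.3%, against 23.2% of all genes) and 35 in WT cells (46.1%, against 22.0%). At 1.5-fold, the threshold used below, 5 members were lower in SCID cells and 3 in WT cells. These shares, 6.58% and 3.95%, were under the 9.43% and 8.36% of all genes lower by that much. No member was higher by 1.5-fold in SCID or WT cells, against 11.0% and 11.3% of all genes, and none was lower by 2-fold, against 2.62% and 2.03%.

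Short transcripts as a whole were lower in the tumour cells, and most members are short. The median length of the members' transcripts was 794.5 bases, while that of all transcripts was 2966. Under 500 bases the median of 109 other genes was -0.21 in SCID cells and -0.28 in WT cells, and the 7 members had -0.41 and -0.33. Among 622 other genes from 500 to under 1000 bases the median was -0.21 in SCID cells and -0.19 in WT cells, and the 40 members of that length had -0.34 and -0.28. From 1000 to under 2000 bases the values were -0.12 and -0.10 for 2498 other genes and -0.34 and -0.34 for 23 members. From 2000 to under 4000 bases they were -0.02 and -0.02 for 4864 other genes and -0.39 and -0.37 for 6 members. When the trend in GC content and length, fitted over all transcripts, was removed, 58 and 52 of 76 members were below 0, against 52.1% and 51.2% of all genes. The median over members was then -0.15 in SCID cells and -0.090 in WT cells, from -0.36 and -0.30 in the deposited values. The trend was fitted with the members included, and whether length or GC content caused the displacement was not tested. The length bands were chosen after the values were seen.

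The members with the lowest values were an accessory subunit, the mobile electron carrier and a proton channel subunit. Ndufs6, a zinc-binding accessory subunit of complex I, was at -0.88 in SCID cells (1.83-fold lower) and -0.81 in WT cells, or -0.59 and -0.54 without the length and GC trend. Its value rests on a single non-coding transcript (chr13:73319876-73328482, reverse strand). Cycs, which encodes cytochrome c, was at -0.76 and -0.80, and it was the member that moved least with the adjustment among these, to -0.77 and -0.70. Cycs lies on chr6:50562563-50566474. Atp5g1, one of the genes of the ATP synthase c ring through which protons pass, was at -0.76 and -0.69, or -0.48 and -0.44 after adjustment. Ndufb10 and Ndufb7, accessory subunits in the membrane arm of complex I, completed the members at 1.5-fold in SCID cells with -0.61 and -0.59. In WT cells they were at -0.57 and -0.40, short of the threshold. Just short of it in SCID cells were Ndufa5 at -0.57 and Cox5a and Cyc1 at -0.56.

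The opposite end held few genes. Cox7a2l, listed here as a supercomplex factor, was the highest member at 0.31 in SCID cells and 0.32 in WT cells. Its pair of transcripts had close values (0.29 and 0.33 in SCID cells), and whether its product acts in supercomplexes in this line was not examined. Ndufa6, an accessory subunit of complex I, was at 0.23 and 0.20. Atp5s, a coupling factor that is not counted among the structural subunits of ATP synthase, was at 0.05 and 0.04. After removal of the length and GC trend Cox7a2l was at 0.47 and 0.48 and Ndufa6 at 0.48 and 0.45. The remaining member above 0 was Atp5f1 in SCID cells only, at 0.013, with -0.10 in WT cells.

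**Figure D2:**
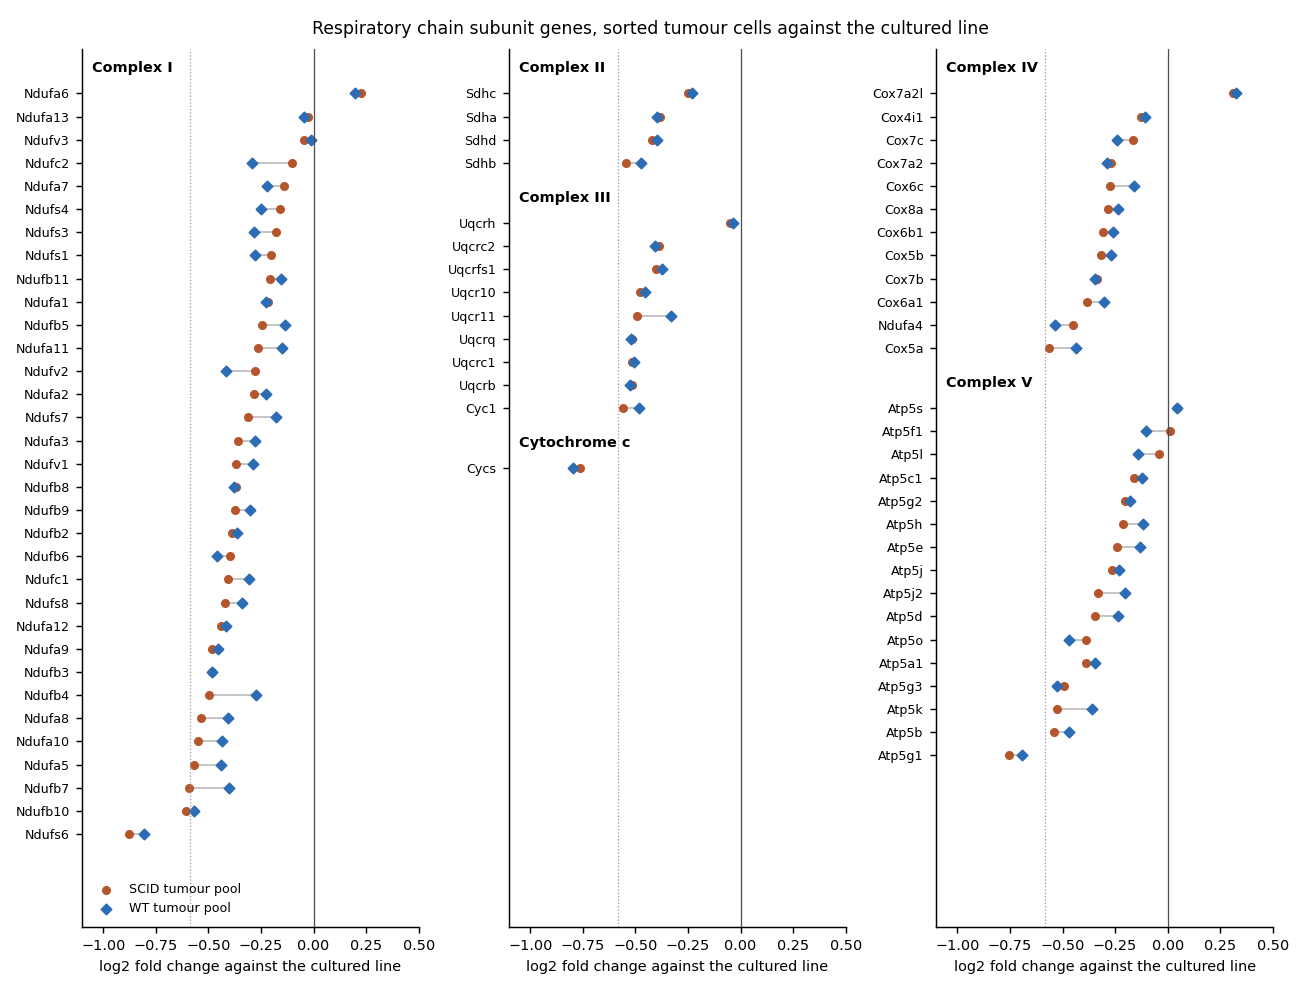
Log2 fold change against the cultured line (x axis) of 75 members, grouped by complex and ordered by the SCID value; circles are the SCID tumour pool, diamonds the WT tumour pool, and the dotted line marks 1.5-fold lower. Most pairs of points lie close together left of 0, with Ndufs6, Cycs and Atp5g1 at the low end and Cox7a2l and Ndufa6 at the high end.

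Promoters are shown for members at both ends and for those with most matches to the core of the motif of NRF1, a transcription factor known for activating respiratory chain genes. RefSeq promoters of GRCm38.p6 were matched for 64 of 76 members. The letters searched were TGCGCA, which read the same on both strands, in the 250 bases before the start, and matches are in capitals. This short core was chosen after the members' values and the matches of a longer form had been seen. The longer form, whose values are not given here, had given larger gaps, with more of the members than of all promoters holding it and lower medians in the members that did. Sequences run 5′ to 3′. Ndufs6 has 1 match, Sdha and Sdhd have 2 each and Cox7a2l has none.
Ndufs6, chr13:73328483-73328732, reverse strand: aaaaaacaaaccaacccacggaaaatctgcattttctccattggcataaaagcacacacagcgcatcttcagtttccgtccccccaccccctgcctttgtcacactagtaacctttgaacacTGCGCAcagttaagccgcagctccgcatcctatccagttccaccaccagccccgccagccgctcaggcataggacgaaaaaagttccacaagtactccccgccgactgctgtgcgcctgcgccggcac
Sdha, chr13:74350241-74350490, reverse strand: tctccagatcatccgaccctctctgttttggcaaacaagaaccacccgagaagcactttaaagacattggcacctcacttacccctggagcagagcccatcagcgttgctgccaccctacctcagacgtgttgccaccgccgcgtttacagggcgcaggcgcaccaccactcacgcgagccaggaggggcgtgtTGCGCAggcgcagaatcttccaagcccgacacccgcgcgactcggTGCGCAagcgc
Sdhd, chr9:50603850-50604099, reverse strand: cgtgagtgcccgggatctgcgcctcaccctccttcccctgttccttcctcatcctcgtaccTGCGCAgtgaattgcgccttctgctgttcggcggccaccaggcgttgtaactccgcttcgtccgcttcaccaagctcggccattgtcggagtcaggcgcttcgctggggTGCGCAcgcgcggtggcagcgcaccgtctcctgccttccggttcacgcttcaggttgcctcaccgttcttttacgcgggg
Cox7a2l, chr17:83514334-83514583, reverse strand: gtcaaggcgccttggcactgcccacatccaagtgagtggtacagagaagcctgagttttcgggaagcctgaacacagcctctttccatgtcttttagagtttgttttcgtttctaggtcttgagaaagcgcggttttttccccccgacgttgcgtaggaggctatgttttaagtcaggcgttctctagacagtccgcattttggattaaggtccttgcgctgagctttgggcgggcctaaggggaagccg
The NRF1 letters occurred in 13 of 64 member promoters (20.3%) and in 12.4% of 9486 gene promoters. The 13 members had a median of -0.38 in SCID cells and -0.30 in WT cells, and the members without the letters had -0.35 and -0.29. The ETS core CCGGAAG, which the factor GABP can bind, was in 17.2% of member promoters and 15.1% of all, and the members with it had medians of -0.31 and -0.28, against -0.37 and -0.31 without. The SP1 letters GGGCGG were in 34.4% of member promoters and 61.4% of all, beside a median GC content of 57.0% and 60.4%, and the members with them had -0.32 and -0.29, against -0.38 and -0.32 without. The E-box letters CACGTG were in 9.38% of member promoters and 8.61% of all, with medians of -0.25 and -0.25, against -0.36 and -0.31 without. The letters TGACG, the core of the CRE motif, were in 34.4% and 28.4%, with medians of -0.35 and -0.37, against -0.36 and -0.29 without. Members with the letters were thus lower for some motifs and nearer 0 for others. The members with 2 matches were not the lowest: Sdha was at -0.38 and -0.40, and Sdhd at -0.42 and -0.40. These matches describe letters in a window and were not tested against the values.

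Complex I, the NADH dehydrogenase, had 34 members, with a median of -0.36 in SCID cells and -0.29 in WT cells, or -0.12 and -0.11 after the length and GC adjustment. In both pools 33 of 34 were below 0, the exception being Ndufa6. The 7 core subunits, which carry the flavin and iron-sulfur clusters or the quinone site, had medians of -0.28 and -0.28, and the 27 accessory subunits -0.37 and -0.30. Among the core, Ndufs8, an iron-sulfur subunit, was at -0.42 in SCID cells and -0.34 in WT cells. Ndufv1, which binds NADH and flavin, was at -0.37 and -0.29. The accessory subunits spread more widely. Beside the lowest genes named above, Ndufa10 was at -0.55 and -0.44 and Ndufa8 at -0.54 and -0.40. Ndufa13, also known as GRIM-19, was at -0.03 and -0.04, and Ndufv3 at -0.04 and -0.01.

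Complex II, succinate dehydrogenase, links the chain to the tricarboxylic acid (TCA) cycle and has no mitochondrially encoded subunit. All 4 of its genes were below 0. Sdha, the flavoprotein, was at -0.38 in SCID cells and -0.40 in WT cells. Sdhb, the iron-sulfur subunit, was at -0.55 and -0.47, and the membrane anchors Sdhc and Sdhd were at -0.25 and -0.42 in SCID cells and -0.23 and -0.40 in WT cells. After the length and GC adjustment all 4 were still below 0, with medians of -0.25 and -0.23. Sdhb then stood at -0.13 and -0.19, and Sdha, with a transcript of 2900 bases, at -0.35 and -0.36. Adjusted values use only transcripts with a known sequence, 90 of 92 for the members. Before adjustment the Sdhb transcripts lay at -0.79 and -0.30 in SCID cells, so a transcript left out could add to the shift of Sdhb.

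Complex III had the lowest median of the complexes, at -0.49 in SCID cells and -0.46 in WT cells, and also the lowest after adjustment, at -0.32 and -0.29. All 9 of its genes were below 0. Cyc1, the cytochrome c1 that hands electrons to cytochrome c, was at -0.56 and -0.48. The core protein genes Uqcrc1 and Uqcrc2 were at -0.52 and -0.39 in SCID cells and -0.51 and -0.41 in WT cells. Uqcrfs1, the Rieske iron-sulfur protein, was at -0.40 and -0.37. The small subunits Uqcrb and Uqcrq, at -0.52 and -0.51 in SCID cells and -0.53 and -0.52 in WT cells, had values close to the core proteins. Uqcrh, the hinge protein beside cytochrome c1, was the exception at -0.05 and -0.03, and it was above 0 after adjustment (0.17 and 0.21). No test of a difference between complexes was made, since their genes share the same libraries.

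Complex IV, cytochrome c oxidase, had 12 members, with medians of -0.30 in SCID cells and -0.27 in WT cells. After adjustment the medians were -0.07 and -0.03, and 8 of 12 members were below 0 in both pools, beside 52.1% and 51.2% of all genes. Ndufa4 is counted here, since its product is known as a complex IV subunit despite its name, and it was at -0.45 and -0.54. Cox5a, which contacts the matrix face of the catalytic core, was at -0.56 and -0.43. Cox4i1, the isoform used in most tissues, was near 0 at -0.13 and -0.11. Its transcripts were at -0.27 and 0.01 in SCID cells and at -0.26 and 0.04 in WT cells. Cox6a1, Cox6b1, Cox7a2 and Cox8a, the broadly used forms of their subunits, lay between -0.38 and -0.27 in SCID cells and between -0.30 and -0.24 in WT cells. The muscle, testis or hypoxia isoforms Cox4i2, Cox6a2, Cox6b2, Cox7a1, Cox7b2, Cox8b, Cox8c and Ndufa4l2 had no value here, so no isoform switch could be read. Ndufs5, Ndufb1, Ndufb4b and Ndufb4c had no value here either.

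Complex V, the ATP synthase, had 16 members, with medians of -0.30 in SCID cells and -0.22 in WT cells. These were -0.10 and -0.01 after adjustment, with 10 and 8 of 16 below 0, beside 52.1% and 51.2% of all genes. In WT cells as many members then lay on each side. Those above 0 in WT cells included Atp5s, which is not a structural subunit, at 0.17. They also included Atp5c1 and Atp5f1, barely above it at 0.0015 and 0.0095. Atp5d was another, at 0.03. Its transcripts lay at -0.37 and -0.10 in WT cells before adjustment, so a transcript left out for want of a sequence could add to its shift. In the catalytic F1 head, Atp5b (beta) was at -0.54 and -0.47 and Atp5a1 (alpha) at -0.39 and -0.34. Atp5c1, the rotor shaft (gamma), was at -0.16 and -0.12. These are means of transcripts at 0.08 and -0.41 in SCID cells and 0.08 and -0.33 in WT cells. The 3 c ring genes encode the same mature protein and differed from one another: Atp5g1 was at -0.76 and -0.69, Atp5g3 at -0.49 and -0.52 and Atp5g2 at -0.20 and -0.18. After adjustment Atp5g2 was at 0.04 and 0.03, and Atp5g3 at -0.29 and -0.31. In the peripheral stalk, which holds the head still, Atp5o was at -0.39 and -0.47 while Atp5f1 was near 0. Atp5k, a small membrane subunit, was at -0.53 and -0.36, and Atp5l, another, at -0.04 and -0.14.

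Between the tumour pools the members hardly differed. The median of WT minus SCID was 0.03, and 56 of 76 members lay within 0.1 of 0, as did 60.5% of all genes. In this comparison 51 of 76 members were above 0, against 51.5% of all genes. No member differed by 0.32 or more in either direction, against 1.47% of all genes lower and 3.34% higher by that much, and 0.177% lower and 1.1% higher at 1.5-fold. The highest were Ndufb4 at 0.22, Ndufb7 at 0.19, Atp5k at 0.16 and Uqcr11, a small subunit of complex III, at 0.16. The lowest were Ndufc2, a complex I subunit, at -0.19, Ndufv2 at -0.14, Atp5f1 at -0.12 and Ndufs3, a core subunit, at -0.11. Medians by complex ran from 0.02 in complexes II and III to 0.04 in complexes I and V. Both tumour pools were compared with the same library of the cultured line, so their closeness to each other in the other comparisons is not separate evidence.

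For 15 members with more than 1 transcript, the gene mean could hide transcripts that differed. Ndufv2, an iron-sulfur subunit at the NADH end of complex I, was the most divided. Its transcripts NM_001278415 and NM_028388 have the same outer coordinates (chr17:66078795-66101559, reverse strand). In WT cells they were at 1.02 and -1.85 against the line, and in SCID cells at 0.19 and -0.74. WT minus SCID was thus 0.83 for one and -1.11 for the other, while the gene mean was -0.14. Ndufa5, an accessory subunit, had -1.19 and 0.05 in SCID cells and -1.00 and 0.12 in WT cells. Its gene means of -0.57 and -0.44 rest on the transcript NM_001311068. Ndufv3 had transcripts at -0.44 and 0.35 in SCID cells and -0.48 and 0.45 in WT cells. Ndufs8 had -0.77 and -0.06 in SCID cells, and Sdhb -0.79 and -0.30. Across the 15 members, 6 had transcripts on both sides of 0 in SCID cells and 6 in WT cells. No source used here says how reads shared by such transcripts were divided. In the 61 members with 1 transcript, 59 were below 0 in each pool, beside 53.4% and 53.0% of the 8288 genes with 1 transcript.

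**Figure D3:**
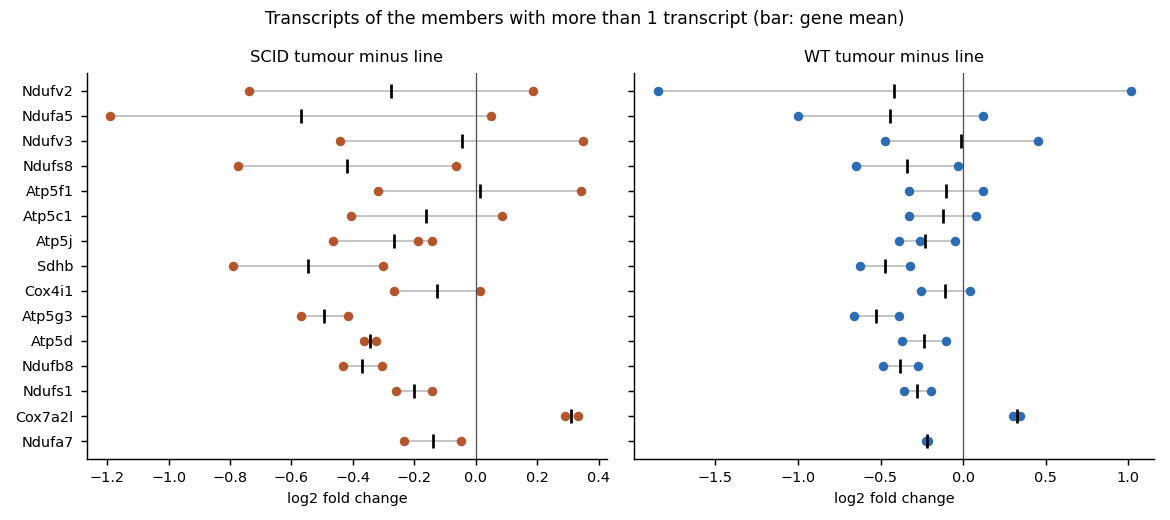
Log2 fold change against the cultured line (x axis) of each transcript (points) of the 15 members with more than 1 transcript, ordered by their range in WT cells; black bars are gene means. The Ndufv2 transcripts lie farthest apart, at 1.02 and -1.85 in WT cells, and the Cox7a2l transcripts close together.

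Most listed genes of mitochondrial energy metabolism were also below 0 in the tumour cells, beside 51.7% of all genes in SCID cells and 51.4% in WT cells. Of 55 listed assembly factors, which build the complexes without staying in them, 51 were measured, 45 were below 0 in each pool and the medians were -0.27 and -0.30, or -0.21 and -0.18 after adjustment. By 1.5-fold, 8 of 51 were lower in SCID cells, where 9.43% of all genes were, and 4 in WT cells, where 8.36% were. After adjustment these counts were 4 and 1, beside 1044 and 938 of 11654 genes. Uqcc2, needed for complex III assembly, was at -0.77 and -0.70, Ndufaf4, of complex I assembly, at -0.73 and -0.77, and Coa3, of complex IV assembly, at -0.71 and -0.64. All 21 listed genes of the TCA cycle and pyruvate entry were measured, with 19 and 20 below 0 and medians of -0.41 and -0.39, and -0.38 and -0.34 after adjustment. Idh3a, a catalytic subunit of isocitrate dehydrogenase, was at -0.68 and -0.67, and Cs, citrate synthase, at -0.58 and -0.51. Genes that feed electrons to ubiquinone by other routes or make it had 17 of 21 below 0 in each pool, with medians of -0.39 and -0.34 and the lowest SCID value in Pdss2, of ubiquinone synthesis, at -0.82.

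The list of carriers and import genes was lower throughout. All 27 measured of 28 were below 0 in both pools, beside 51.7% and 51.4% of all genes. Their medians were -0.52 and -0.53, and -0.46 and -0.45 after adjustment. By 1.5-fold, 12 of 27 were lower in SCID cells and 10 in WT cells, beside 9.43% and 8.36% of all genes. After adjustment 7 were lower in each pool, beside 1044 and 938 of 11654 genes. Chchd4, which traps imported proteins by oxidation in the intermembrane space, was at -1.00 and -1.12. Slc25a5 and Slc25a4, carriers that exchange ADP for ATP, were at -0.90 and -0.70 in SCID cells and -0.74 and -0.67 in WT cells. Hspd1, the matrix chaperonin, was at -0.85 and -0.91. Among genes that shape the inner membrane 8 of 10 were below 0 in each pool, beside the same shares of all genes. Letm1, an ion exchanger, was at -0.91 and -0.77.

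Of 19 listed regulators of mitochondrial biogenesis 15 were measured, with medians of -0.10 and -0.11. Of these, 11 and 13 were below 0, beside 51.7% and 51.4% of all genes. After adjustment, which 14 of them had, the medians were -0.14 and -0.20, beside -0.15 and -0.090 for the subunits, and no difference between lists was tested. Tfam, the packaging and transcription factor of mitochondrial DNA, was the lowest at -0.57 and -0.53. Nrf1 was at -0.16 and -0.20 and Gabpa, encoding the DNA-binding part of GABP, at -0.10 and -0.10. Polg2, the accessory subunit of the mitochondrial DNA polymerase, was higher at 0.90 and 0.99. Genes that switch respiration in low oxygen went the other way, with medians of 0.47 and 0.34. In each pool 6 of 8 measured were above 0, beside 5745 and 5772 of all 11886 genes. Bnip3, a mitophagy receptor, was at 1.58 and 1.33, Mxi1, an antagonist of MYC, at 1.14 and 1.02, and Pdk1, which blocks pyruvate entry, at 0.47 and 0.31. None of the 13 mitochondrially encoded subunits had a value here under the symbols searched. The nuclear and mitochondrial parts of the chain could thus not be set side by side.

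**Figure D4:**
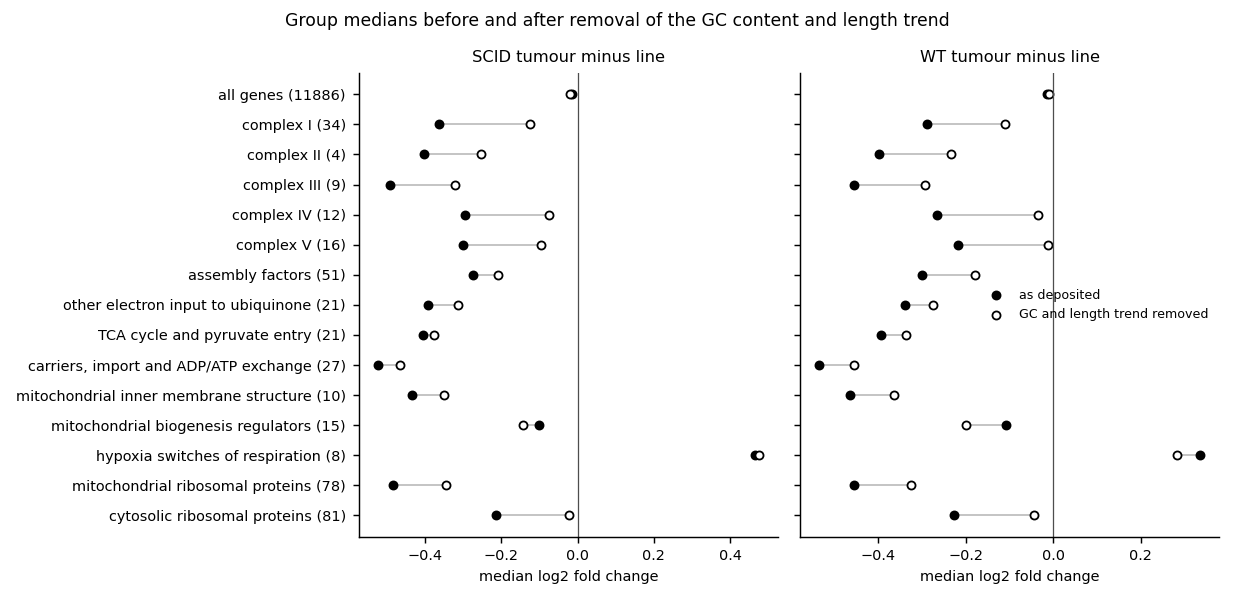
Median log2 fold change against the cultured line (x axis) of each complex and gene list, with the number of genes measured in brackets; filled points are the deposited values and open points the values after removal of the GC content and length trend. The medians of complexes IV and V move nearly to 0 after adjustment, while that of complex III stays below -0.29. Those of carriers and import, TCA cycle, inner membrane structure and mitochondrial ribosomal protein genes also stay below -0.29.

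Markers of host cells were higher in the tumour pools beside these values. Of 14 macrophage and monocyte markers 4 were measured (Cd68, Mrc1, Cd14 and Apoe), from -0.06 to 1.02 in SCID cells and from 0.77 to 2.77 in WT cells. Of 10 fibroblast markers only Col1a1 was measured, at 2.61 and 1.90, and 3 of 6 endothelial markers lay between 0.80 and 1.66 over both pools. No T cell, B cell or neutrophil marker listed had a value here. All 10 ductal epithelial markers were measured, on both sides of 0, from Krt7 at -1.18 to Sox9 at 1.28 in SCID cells. Fold changes give no levels, so the share of host RNA in the sorted cells is unknown, and its part in the values of the subunits was not tested. Sorting of the tumour cells, for which the labels describe no counterpart in the cultured line, cannot be told apart from growth in the animal.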

How the data were processed

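RNA-seq was made from 3 libraries, 1 per group, of poly(A) RNA. The authors deposited log2 fold changes between libraries, 1 value per RefSeq transcript and comparison, from -2.49 to 2.77. The file header does not state the log base; log2 is assumed, since DESeq2 1.20.0 stands in the submitters' processing notes beside BWA, Partek, R 3.5.1 and mm9, with no roles. Shrinkage, row filters and the counting method are not stated there. The column named for SCID alone matched the difference of the other 2 to within 1e-12 for each of 17910 transcripts; it was taken as SCID minus WT and its sign was reversed. Depth is unknown, and so is the precision of each value.

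A gene's value is the mean over its transcripts (Python 3.11.15, pandas 2.3.3). With 1 library per group, calls are fold thresholds and no test was run. The count or level models considered for other units did not apply. Coordinates are those of the deposited table, with ends 1 base below the stop; of 92 member transcripts all lay on the same chromosome as in RefSeq GRCm38.p6 and 88 started within 1000 bases of the gene start there, so they were read as GRCm38 although the notes name mm9. GC content and length came from GENCODE vM21 sequences for 90 of 92 member and 16697 of 17910 transcripts. A quadratic trend explained 4.59%, 6.04% and 7.02% of the variance of SCID minus line, WT minus line and WT minus SCID. The fit was run on simulated data with a linear trend and a shift of transcripts drawn at random. That run does not cover a set of mostly short transcripts such as the members. Whether the adjustment also removes a shift of their own was not tested. Named are members past 1.5-fold, the lowest and highest of each complex, the Sdh, cytochrome c and isoform genes, and examples of list genes past 1.5-fold or farthest from 0; a few others were picked with their values in view. The values of 1 member, counted in its group, are not reported here. The members and lists were chosen with earlier results of these data known.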

Additional observations from a re-analysis of the deposited data

Results flagged for a closer look

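Atp5f1, the b subunit of the ATP synthase stalk, was the member whose sign differed between the tumour pools: it was at 0.013 in SCID cells and -0.10 in WT cells against the line. The difference was not tested, and each value is the mean of a pair of transcripts, at 0.34 and -0.32 in SCID cells and 0.12 and -0.33 in WT cells.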

How the results depend on the processing

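The medians over members and the counts below 0 kept their direction under the median transcript, coding transcripts, genes with 1 transcript, centring on the median gene and removal of Atp5s. With the GC content and length trend removed, the median became -0.15 in SCID cells and -0.090 in WT cells. By 1.5-fold, 2 and 1 members were then lower, beside 1044 and 938 of 11654 genes. With the transcript farthest from 0, 9 and 8 members were lower by 1.5-fold, and 1 (Ndufv2) passed it between the tumour pools. The share of all genes past 1.5-fold was not counted for that setting, so these counts have no background beside them. At a log2 difference of 0.32, 42 and 35 members were lower, and at 2-fold 0 and 0. Of 243 values of single members and complexes, 126 moved with the GC and length adjustment and 23 with the farthest transcript. A value counted as moved if it changed by at least 0.1 and also by over 1.5 times or in sign. Leaving out a library was not possible with 1 per group. No paired analysis was possible because each group is 1 pooled library. Several members have pseudogene copies (17 such symbols in RefSeq match the rule), and reads shared with them could be split without a trace in the table.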

Other observations

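The ribosomal proteins offer a second pair of large, co-expressed gene sets with short transcripts. All 78 mitochondrial ribosomal protein genes were below 0 in both tumour pools against the line, with medians of -0.48 in SCID cells and -0.46 in WT cells, and -0.35 and -0.32 after removal of the GC content and length trend. The lowest in SCID cells was Mrpl12 at -0.94. Of 81 cytosolic ribosomal protein genes, 74 and 77 were below 0, with medians of -0.21 and -0.23, and -0.02 and -0.04 after the adjustment. Of all genes, 51.7% and 51.4% were below 0 before it. The respiratory chain members, at -0.15 and -0.090 after the adjustment, lay between these sets. These medians describe 3 libraries that share the line as control, and no test of the differences between the sets was made.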
